A study of Mus musculus with 3 samples.

Results

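The mitochondrially encoded respiratory genes described here are 10 of the 32285 genes in the count tables of mouse bone marrow cells: mt-Nd1, mt-Nd2, mt-Nd3, mt-Nd4, mt-Nd5, mt-Cytb, mt-Co1, mt-Co2, mt-Co3 and mt-Atp6. They were chosen by symbol, as mRNAs of the mitochondrial genome, and not by their values. Each was read as its share of the unique molecular identifiers (UMIs, 1 per captured RNA molecule) of a cell class, in barcodes in which no more than 10% of UMIs came from mt- genes and which held 500 UMIs and 300 genes or more. The study set 3 groups of C57BL/6J mice side by side, with 1 droplet single-cell library each. MI-E was labelled as myocardial infarction with EMPA, MI as myocardial infarction alone, and Sham as the sham group, whose label repeats the same surgical text and does not describe the sham operation. Infarction was made by tying off the left anterior descending (LAD) coronary artery through a thoracotomy under isoflurane, and all groups supplied cells from femur and tibia cleaned on a Ficoll-Paque density gradient. A Ficoll gradient keeps mononuclear cells and loses part of the granulocytes and red cells, so class shares are those of the gradient fraction. The labels used here give no age, sex, time after surgery, dose of EMPA or number of animals behind a library. With 1 library a group there is no replicate, hence no test of a condition and no p-value: every difference below is between libraries, and each 95% interval covers counting error alone. The 3 comparisons share libraries, so they are not independent of each other. Nor are the classes within a comparison, which all come from the same libraries, so counts of classes are not replication.

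Mitochondrial DNA encodes core subunits of the respiratory chain, and every other subunit is encoded in the nucleus. The mt-Nd genes encode membrane subunits of complex I, the NADH dehydrogenase that passes electrons to ubiquinone. mt-Cytb encodes cytochrome b of complex III, mt-Co1, mt-Co2 and mt-Co3 encode the catalytic core of complex IV, the cytochrome c oxidase, and mt-Atp6 encodes a membrane subunit of the ATP synthase through which protons pass. The mRNAs are cut from long polycistronic transcripts at the tRNAs between them, and most receive a short poly(A) tail, which lets a poly(T)-primed 3′ kit capture them. Because members on one strand begin in one transcript, differences in level between them are generally set after transcription, by processing and stability. In marrow, lymphoid and early progenitor cells depend on oxidative phosphorylation to differing degrees, whereas maturing neutrophils are known for few mitochondria and for glycolysis.

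All 10 members lie on the same (+) strand of the mitochondrial chromosome in mm10: mt-Nd1 (ENSMUSG00000064341) at chrM:2751-3707, mt-Nd2 (ENSMUSG00000064345) at chrM:3914-4951, mt-Co1 (ENSMUSG00000064351) at chrM:5328-6872, mt-Co2 (ENSMUSG00000064354) at chrM:7013-7696, mt-Atp6 (ENSMUSG00000064357) at chrM:7927-8607, mt-Co3 (ENSMUSG00000064358) at chrM:8607-9390, mt-Nd3 (ENSMUSG00000064360) at chrM:9459-9806, mt-Nd4 (ENSMUSG00000064363) at chrM:10167-11544, mt-Nd5 (ENSMUSG00000064367) at chrM:11742-13565 and mt-Cytb (ENSMUSG00000064370) at chrM:14145-15288. The annotation (GENCODE vM21) gives each as 1 exon without introns, from 348 bases for mt-Nd3 to 1824 bases for mt-Nd5, and lists 13 protein-coding genes, 22 tRNA genes and 2 rRNA genes on this chromosome. The last 30 bases of each coding sequence are shown because this is the end that a 3′ kit primes next to. They read 5′ to 3′, and the capitals mark the stop codon, or the last T where the annotated gene ends before its stop codon is complete and the poly(A) tail supplies the rest.
mt-Nd1: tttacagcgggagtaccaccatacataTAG
mt-Nd2: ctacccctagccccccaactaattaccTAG
mt-Nd3: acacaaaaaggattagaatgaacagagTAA
mt-Nd4: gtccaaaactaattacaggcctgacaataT
mt-Nd5: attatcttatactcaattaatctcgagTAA
mt-Cytb: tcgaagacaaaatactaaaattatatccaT
mt-Co1: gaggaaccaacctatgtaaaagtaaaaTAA
mt-Co2: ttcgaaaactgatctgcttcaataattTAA
mt-Co3: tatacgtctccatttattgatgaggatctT
mt-Atp6: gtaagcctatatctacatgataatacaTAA
mt-Nd4, mt-Cytb and mt-Co3 end in such a lone T, and the other 7 carry a whole TAA or TAG. Some reads of a member could come from, or be shared with, a near-identical nuclear copy. Copies that reach the 3′ end were found for mt-Co2 (Gm28661, chromosome 1, identity 100%), mt-Co3 (Gm28437, chromosome 1, 100%), mt-Atp6 (Gm10925, chromosome 1, 100%), mt-Co1 (Gm29216, chromosome 1, 99.8%), mt-Nd3 (Gm28438, chromosome 1, 99.7%), mt-Nd2 (Gm13339, chromosome 2, 96.7%) and mt-Cytb (Gm11410, chromosome 4, 92.9%), and none reached the 3′ end of mt-Nd1, mt-Nd4 or mt-Nd5. None of these copies has a row in the count tables, so how reads were divided between copy and member is uncertain. mt-Atp6 also overlaps mt-Atp8 by 43 bases and mt-Co3 by 1 base, mt-Nd4 overlaps mt-Nd4l by 7 bases, and mt-Nd5 overlaps mt-Nd6, on the other strand, by 14 bases.

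The libraries held 22857 MI-E, 23810 MI and 25721 Sham barcodes with 109451500, 127330601 and 99657072 UMIs in that order. After the limits above and removal of likely doublets (12.8% in MI-E, 12.8% in MI and 15.1% in Sham), 19617 MI-E, 20460 MI and 21273 Sham cells remained, with a median of 2581 UMIs in MI-E, 3113 UMIs in MI and 2132 UMIs in Sham. The 10% limit removed 248 MI-E, 179 MI and 284 Sham barcodes. Between 156 and 176 barcode sequences occurred in both libraries of a pair. Cells were grouped without using any mt- gene, and 10 classes and 3 B cell stages with at least 200 cells in each library were compared, each called "-like" after its marker genes. Every marker of these classes was detected in each library and was higher in its class than in the other cells, except that immature B-like cells had 7 of 8 markers higher in MI-E, 7 of 8 in MI and 6 of 8 in Sham. The same markers had named the classes, so these counts describe the names and are no independent check of them. Neutrophil-like cells made up 26.2% in MI-E, 32.2% in MI and 11.9% in Sham, and B lineage-like cells 27.0% in MI-E, 19.1% in MI and 49.1% in Sham. Sham cells of several classes fell into clusters of their own: 1 monocyte-like cluster held 2780 MI-E, 3712 MI and 30 Sham cells, and another held 72 MI-E, 27 MI and 2743 Sham cells. For this reason, values of shared clusters are given beside the comparisons with Sham for monocyte-, neutrophil-, erythroid- and myeloid progenitor-like cells.

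Over all kept cells, the UMI share of the 10 mRNAs together was 2.15% in MI-E, 1.69% in MI and 2.33% in Sham. The exact Poisson intervals were 2.143 to 2.149%, 1.684 to 1.689% and 2.322 to 2.329%, so the MI library was the lowest of the 3 beyond counting error, and Sham the highest. These values are shares of captured RNA and do not give copies per cell. Among the complex IV genes, mt-Co1 had 5219.8 CPM in MI-E, 3952 CPM in MI and 4938 CPM in Sham. Here CPM is UMIs per 1000000 UMIs of the class or library. mt-Co2 had 3551 CPM in MI-E, 3102 CPM in MI and 4161 CPM in Sham, and mt-Co3 had 3848 CPM in MI-E, 2816 CPM in MI and 3750.2 CPM in Sham. mt-Atp6 of the ATP synthase had 3892 CPM in MI-E, 3299 CPM in MI and 4604 CPM in Sham. mt-Co1, mt-Co2, mt-Co3 and mt-Atp6 held the larger part of the member UMIs in each library, with mt-Co1 first throughout. mt-Cytb of complex III had 1409 CPM in MI-E, 1096 CPM in MI and 1927 CPM in Sham. Among the complex I genes, mt-Nd4 had 1148 CPM in MI-E, 919 CPM in MI and 1511 CPM in Sham, and mt-Nd1 had 1115 CPM in MI-E, 815 CPM in MI and 963 CPM in Sham. Sham was the highest library for mt-Cytb and mt-Nd4, and MI-E for mt-Nd1. mt-Nd2 had 539 CPM in MI-E, 381 CPM in MI and 700.5 CPM in Sham. mt-Nd3 had 397 CPM in MI-E, 241 CPM in MI and 337 CPM in Sham, and mt-Nd5 had 339 CPM in MI-E, 245 CPM in MI and 363 CPM in Sham. mt-Nd3 and mt-Nd5 were the members with the fewest UMIs, mt-Nd5 being last in MI-E and mt-Nd3 in MI and Sham.

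Set per kilobase of annotated length, the order of the members was not the same. mt-Atp6 came first, with 5716 CPM per kb in MI-E, 4844 CPM per kb in MI and 6761 CPM per kb in Sham, then mt-Co2 with 5191 CPM per kb in MI-E, 4534 CPM per kb in MI and 6084 CPM per kb in Sham. mt-Co3 followed with 4908 CPM per kb in MI-E, 3591 CPM per kb in MI and 4783 CPM per kb in Sham, and mt-Co1, first in CPM, was the fourth with 3378 CPM per kb in MI-E, 2558 CPM per kb in MI and 3196 CPM per kb in Sham. mt-Cytb had 1231 CPM per kb in MI-E, 958 CPM per kb in MI and 1685 CPM per kb in Sham, mt-Nd1 1165 CPM per kb in MI-E, 851 CPM per kb in MI and 1006 CPM per kb in Sham, and mt-Nd3, the shortest member, 1140.5 CPM per kb in MI-E, 693 CPM per kb in MI and 968 CPM per kb in Sham. mt-Nd4 had 833 CPM per kb in MI-E, 667 CPM per kb in MI and 1096 CPM per kb in Sham, below mt-Cytb, mt-Nd1 and mt-Nd3 in MI-E and MI but above mt-Nd1 and mt-Nd3 in Sham. mt-Nd2, with 519 CPM per kb in MI-E, 367 CPM per kb in MI and 675 CPM per kb in Sham, stood below all of these. mt-Nd5, the longest member, was last in every library, with 186 CPM per kb in MI-E, 134 CPM per kb in MI and 199 CPM per kb in Sham. A 3′ kit counts ends of molecules, so its counts are not set by annotated length. Division by length raises short genes and lowers long ones. Levels per kb are thus a description and not molar amounts, and members are better compared by CPM.

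The classes differed more from each other than the libraries did: within a class, the highest library exceeded the lowest by 1.17-fold to 1.36-fold. In B lineage-like cells the UMI share of the 10 mRNAs was 3.67% in MI-E, 3.104% in MI and 3.13% in Sham, and in plasmacytoid dendritic-like cells it was 3.39% in MI-E, 2.88% in MI and 3.24% in Sham. T-like cells held 3.43% in MI-E, 2.70% in MI and 2.86% in Sham, and stem and multipotent progenitor-like cells 3.27% in MI-E, 2.58% in MI and 2.72% in Sham. These 4 classes were the highest in each library. Conventional dendritic-like cells, which present antigen, held 2.37% in MI-E, 2.12% in MI and 1.90% in Sham, monocyte-like cells 2.30% in MI-E, 1.92% in MI and 2.20% in Sham, and basophil-like cells 2.26% in MI-E, 1.93% in MI and 2.03% in Sham. Erythroid-like cells held 2.22% in MI-E, 1.91% in MI and 1.63% in Sham. The share was 2.13% in MI-E, 1.71% in MI and 2.13% in Sham for myeloid progenitor-like cells. These 5 classes took different places in the 3 libraries. Neutrophil-like cells were the lowest class in each library, with 1.02% in MI-E, 0.908% in MI and 1.15% in Sham. Neighbours in this order whose counting intervals overlapped were T-like and plasmacytoid dendritic-like cells in MI-E, basophil-like and erythroid-like cells in MI-E, and, in MI, monocyte-like cells with both basophil-like and erythroid-like cells. Within the B lineage, immature B-like cells held 4.07% in MI-E, 3.47% in MI and 3.67% in Sham, small pre-B-like cells 3.98% in MI-E, 3.25% in MI and 3.79% in Sham, and mature naive B-like cells 3.47% in MI-E, 2.93% in MI and 3.22% in Sham. The immature stage thus stood above the mature naive stage in each library. Large pre-B-like cells, the dividing stage, numbered 90 MI-E, 18 MI and 1191 Sham and were not compared.

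**Figure D1:**
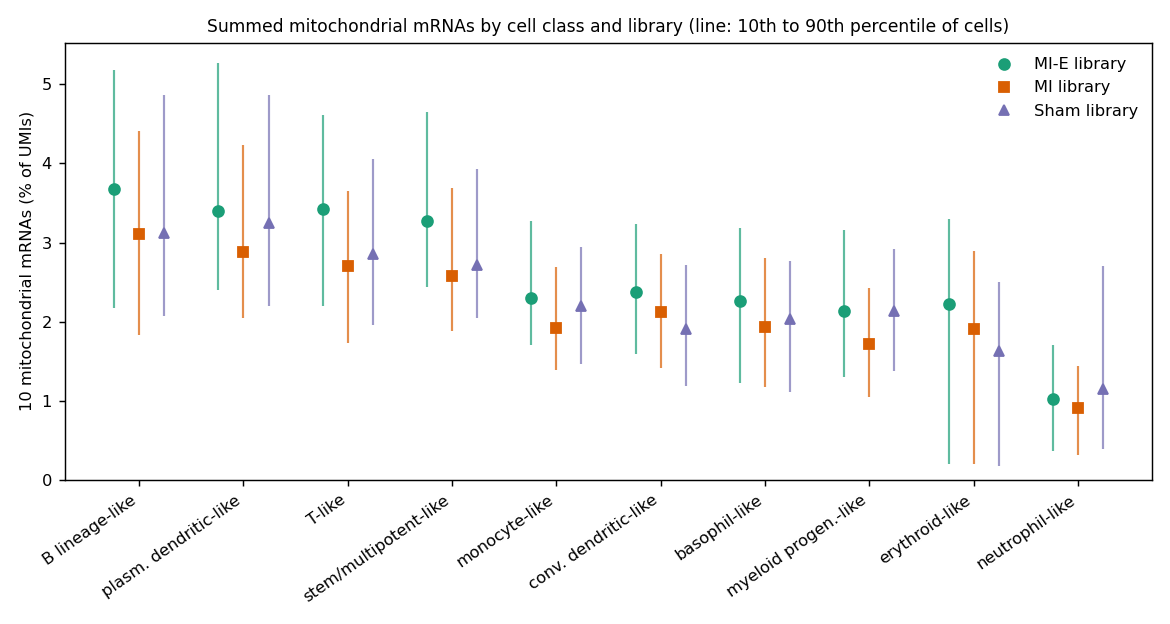
Share of UMIs held by the 10 mRNAs (%, vertical axis) in 10 cell classes (horizontal axis); circles are the MI-E library, squares the MI library and triangles the Sham library, each the class sum, and lines run from the 10th to the 90th percentile of cells. Neutrophil-like cells are lowest in all 3 libraries, and the MI-E point lies above the MI point in all 10 classes.

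Every member shared the low level of neutrophil-like cells. mt-Nd3 had 127 CPM in MI-E, 90.7 CPM in MI and 141 CPM in Sham in neutrophil-like cells, and mt-Nd2 had 148 CPM in MI-E, 132 CPM in MI and 254 CPM in Sham. Sham was the highest library for both. In T-like cells mt-Nd2 had 1362 CPM in MI-E, 962 CPM in MI and 1125 CPM in Sham, the highest of the 10 classes in each library. mt-Co1 had 3082 CPM in MI-E, 2559.9 CPM in MI and 2968 CPM in Sham in neutrophil-like cells, and 8964 CPM in MI-E, 7534 CPM in MI and 6619 CPM in Sham in B lineage-like cells, a smaller gap between the classes than that of mt-Nd2. mt-Nd1 had 875 CPM in MI-E, 583 CPM in MI and 624 CPM in Sham in basophil-like cells, and 1411 CPM in MI-E, 1035 CPM in MI and 789.6 CPM in Sham in erythroid-like cells. For mt-Nd1 the erythroid-like cells thus stood higher, although the sum of the 10 was not higher in them. mt-Cytb had 2382 CPM in MI-E, 1875 CPM in MI and 2579.9 CPM in Sham in stem and multipotent progenitor-like cells, against 1564 CPM in MI-E, 1448 CPM in MI and 1502 CPM in Sham in conventional dendritic-like cells.

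Since the classes have different levels, the class mix of a library moves its total. With each class weighted by its mean share of UMIs over the 3 libraries, the UMI share of the 10 mRNAs was 2.25% in MI-E, 1.88% in MI and 2.10% in Sham. The order of the libraries then differed from that of the unweighted totals, with MI-E first in place of Sham. The log2 ratio of MI-E over MI was 0.35 in the unweighted totals and 0.26 at equal class mix. That of MI over Sham was -0.46 and -0.16, and that of MI-E over Sham was -0.12 and 0.094. As totals of UMIs, the comparison of MI-E with Sham thus changed sign with the class mix, and the other 2 kept theirs. Under median-of-ratios and trimmed-mean (TMM) scaling, MI-E over Sham was -0.16 and -0.14 unweighted and -0.048 and -0.044 at equal class mix, so its sign did not change with the mix there and MI-E did not come above Sham.

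MI-E was first set against MI, which asks how the infarction library with EMPA differs from that without it. All 10 members passed the minimum of 50 CPM set on low values, here and in each class. All 10 had a higher share in MI-E over all kept cells, and the summed members were 1.27-fold higher (interval 1.270 to 1.275). The largest ratio was that of mt-Nd3, 1.65-fold (interval 1.62 to 1.67), from 397 CPM in MI-E, 241 CPM in MI and 337 CPM in Sham. It was the 1 member of 10 past 1.5-fold, where 1.11% of all genes at that minimum were that much higher in MI-E. The log2 ratios of the other complex I genes were 0.50 for mt-Nd2, 0.47 for mt-Nd5, 0.45 for mt-Nd1 and 0.32 for mt-Nd4. In complex IV they were 0.45 for mt-Co3, 0.40 for mt-Co1 and 0.20 for mt-Co2. mt-Cytb had 0.36 and mt-Atp6 0.24, and the median of the members was 0.43 against 0.11 for all genes tested. The same scalings, by the median of gene ratios or by the trimmed mean of log ratios, would move every log2 ratio of this pair by -0.14 or -0.16, and the sign of no member over all kept cells turned with it.

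The share was also higher in MI-E in each of the 10 classes, which come from the same pair of libraries. For the summed members the log2 ratio ran from 0.16 in conventional dendritic-like cells to 0.34 in T-like cells, with a median of 0.24, and the interval excluded equality in all 10. mt-Nd3 had the largest ratio of the 10 members in each class, although in myeloid progenitor-like cells its log2 ratio of 0.52 was close to the 0.49 of mt-Nd5. It had 364 CPM in MI-E, 193 CPM in MI and 245 CPM in Sham in basophil-like cells, where the ratio was largest, 1.89-fold (interval 1.59 to 2.25). It had 629 CPM in MI-E, 361 CPM in MI and 376 CPM in Sham in T-like cells, and 437 CPM in MI-E, 288 CPM in MI and 317 CPM in Sham in monocyte-like cells. In all 3 of these classes the MI-E library stood above both others, and MI was the lowest. The log2 ratio of mt-Nd3 ran from 0.48 in neutrophil-like to 0.92 in basophil-like cells and was past 1.5-fold in 8 of the 10 classes, all but neutrophil-like and myeloid progenitor-like cells. Of all genes tested, those that far higher in MI-E were 4.7% in basophil-like, 2.11% in conventional dendritic-like, 2.05% in plasmacytoid dendritic-like, 1.84% in stem and multipotent progenitor-like, 1.65% in erythroid-like and 1.5% in T-like cells. They were 1.44% in monocyte-like, 1.14% in neutrophil-like, 0.765% in B lineage-like and 0.557% in myeloid progenitor-like cells. mt-Nd1 was past 1.5-fold in 2 classes, with 1846 CPM in MI-E, 1217 CPM in MI and 1224 CPM in Sham in T-like cells and 875 CPM in MI-E, 583 CPM in MI and 624 CPM in Sham in basophil-like cells.

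The complex IV and ATP synthase genes spread widely in this comparison. mt-Co3 was higher in MI-E in 10 of 10 classes, with a median log2 ratio of 0.36, and mt-Co1 in 10 of 10, with 0.26. mt-Co2 was higher in 9 of 10, with a median of 0.11, and under the 2 scalings in 6 and 7 classes. mt-Atp6 was higher in 10 of 10, with a median of 0.13, and in 8 under either scaling. mt-Nd4 was higher in 10 of 10, and in 9 under either scaling, while the remaining members kept 10 of 10. mt-Cytb had a median log2 ratio of 0.29, mt-Nd2 0.38, and mt-Nd5 0.30. In mature naive B-like cells, the stage named in the study's title, mt-Nd3 had 659 CPM in MI-E, 419 CPM in MI and 457 CPM in Sham, and mt-Co1 had 8183 CPM in MI-E, 6976 CPM in MI and 6592 CPM in Sham. mt-Co2 there had 5004 CPM in MI-E, 4703 CPM in MI and 5380.1 CPM in Sham, so that MI-E exceeded MI by less than for mt-Nd3 or mt-Co1. In each of 7 monocyte-, neutrophil-, erythroid- and myeloid progenitor-like clusters with cells of all 3 libraries, the summed members were higher in MI-E than in MI, with log2 ratios from 0.15 to 0.38.

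**Figure D2:**
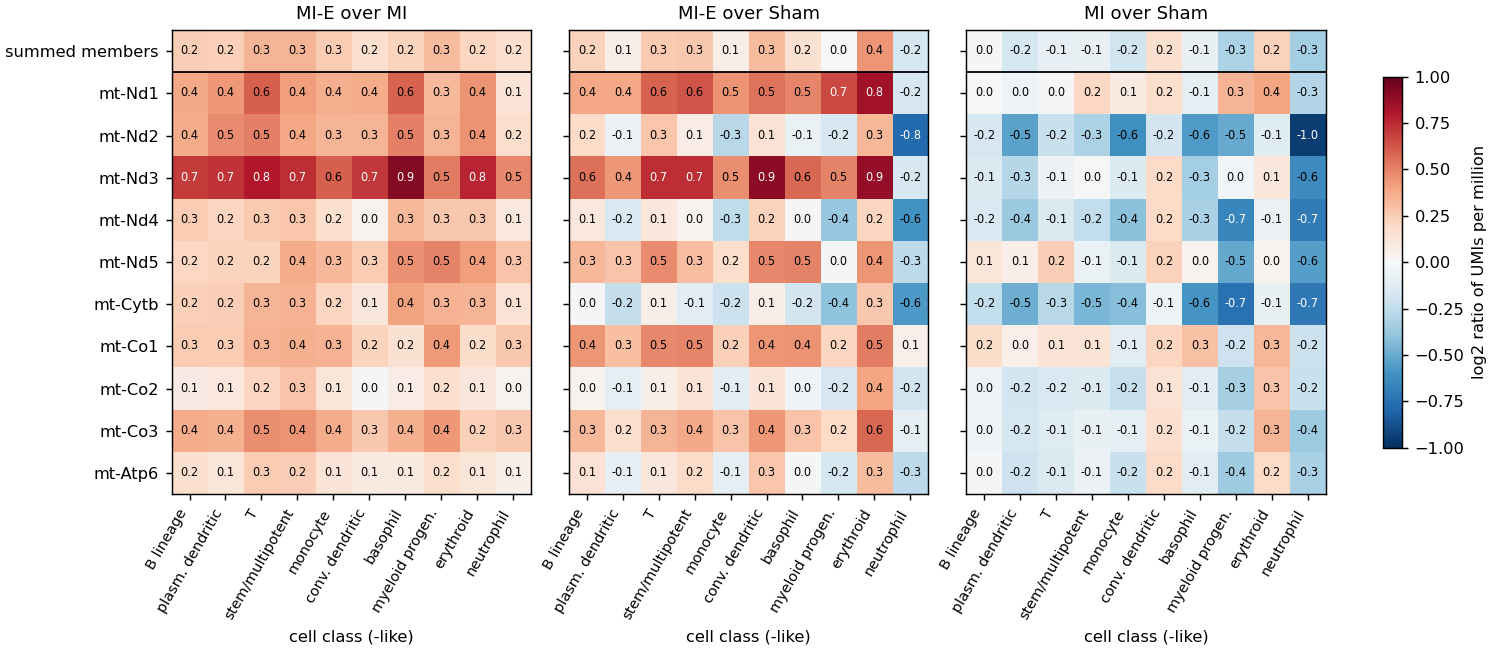
Log2 ratio of CPM (colour and printed value) for the summed members and each of the 10 mRNAs (rows) in 10 cell classes (columns), for MI-E over MI, MI-E over Sham and MI over Sham from left to right. Red is higher in the library named first; the mt-Nd3 row is the reddest of the left panel, and the neutrophil-like column of the right panel is blue in all rows.

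MI was next set against Sham, which asks how the marrow after infarction differs from that of the sham group. Over all kept cells all 10 members were lower in MI, and the summed members were 1.38-fold lower (interval 1.376 to 1.382). mt-Nd2 was lowest relative to Sham, with a log2 ratio of -0.88, followed by mt-Cytb with -0.81 and mt-Nd4 with -0.72. mt-Nd1 and mt-Co1 were nearest to Sham, with -0.24 and -0.32. Past 1.5-fold lower were 3 of the 10 members, where 9.27% of all genes tested were. At equal class mix the difference was smaller, as given above. The summed members were lower in MI in 8 of 10 classes, with log2 ratios from -0.34 in neutrophil-like to 0.23 in erythroid-like cells and a median of -0.077. Conventional dendritic-like and erythroid-like cells were the 2 classes with a higher share in MI, and under either scaling 1 of 10 classes was higher.

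mt-Nd2 and mt-Cytb were lower in MI in 10 of 10 classes, also under either scaling. mt-Nd2 ran from -0.95 in neutrophil-like to -0.12 in erythroid-like cells on the log2 scale, and mt-Cytb from -0.74 in myeloid progenitor-like to -0.053 in conventional dendritic-like cells. mt-Nd4 was lower in 9 of 10 classes. mt-Co1 had the opposite direction in most classes: it was higher in MI in 7 of 10, and in 6 under either scaling, with a median log2 ratio of 0.13. In B lineage-like cells mt-Co1 had 8964 CPM in MI-E, 7534 CPM in MI and 6619 CPM in Sham, while mt-Nd2 had 1135 CPM in MI-E, 878 CPM in MI and 988 CPM in Sham. Over the whole B lineage, Sham was thus the lowest of the 3 libraries for mt-Co1 and lay between MI-E and MI for mt-Nd2. The stages making up this class differ between libraries: large pre-B-like cells, a stage not compared, held 443406 of 6833120 UMIs in MI-E, 49982 of 4696032 in MI and 6937248 of 20910648 in Sham. Within stages, mt-Nd2 had 1227 CPM in MI-E, 956 CPM in MI and 1249.8 CPM in Sham in mature naive B-like cells, 1162 CPM in MI-E, 922 CPM in MI and 1204 CPM in Sham in immature B-like cells and 940.0 CPM in MI-E, 717 CPM in MI and 1074 CPM in Sham in small pre-B-like cells. Sham was the highest library in all 3 stages, although the interval of MI-E over Sham excluded equality only in small pre-B-like cells, and MI was the lowest. mt-Co1 in immature B-like cells had 9914 CPM in MI-E, 8249.8 CPM in MI and 7456 CPM in Sham, Sham again being the lowest.

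In monocyte-like cells mt-Nd2 had 542 CPM in MI-E, 429 CPM in MI and 655 CPM in Sham, the Sham library being highest. The summed members of this class had a log2 ratio of MI over Sham of -0.20, and in 2 clusters that all libraries shared, both led by F13a1 and Fn1, the difference was larger. In the one that also held histone genes among its leading genes, they held 2.12% in MI-E, 1.76% in MI and 2.27% in Sham, and in the other, with Trem2 and Vcan, 2.11% in MI-E, 1.72% in MI and 2.30% in Sham. The log2 ratios of MI over Sham were -0.37 in the histone cluster and -0.42 in the Trem2 cluster, and those of MI-E over Sham -0.099 in the histone cluster and -0.12 in the Trem2 cluster, where the whole class had 0.061. MI-E was thus below Sham in both shared clusters and above it in the class. In the shared myeloid progenitor-like cluster led by Elane and Mpo, genes of primary granules, the members held 2.29% in MI-E, 1.77% in MI and 2.16% in Sham, with log2 ratios of -0.29 for MI over Sham and 0.083 for MI-E over Sham, against -0.32 and -0.0018 in the class.

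Neutrophil-like cells had the largest log2 ratio of the summed members in size, -0.34. There, mt-Nd2 had 148 CPM in MI-E, 132 CPM in MI and 254 CPM in Sham, and mt-Cytb had 563 CPM in MI-E, 509 CPM in MI and 837 CPM in Sham. mt-Nd4 had 432 CPM in MI-E, 402 CPM in MI and 658 CPM in Sham. Sham was the highest library for each, and MI the lowest. Past 1.5-fold lower in MI were 4 of the 10 members (mt-Nd2, mt-Cytb, mt-Nd4 and mt-Nd3), where 4.66% of all genes tested were. Within clusters that the libraries shared, the difference was smaller. In the cluster led by Ltf, Ngp and Camp, genes of secondary granules, the summed members held 0.895% in MI-E, 0.791% in MI and 0.899% in Sham. In that led by Fcnb and Cebpe, genes of earlier precursors, they held 1.25% in MI-E, 1.10% in MI and 1.12% in Sham, with log2 ratios of MI over Sham of -0.18 in the Ltf cluster and -0.018 in the Fcnb cluster. The mature cells, marked by Cxcr2 or Ptgs2, lay in different clusters for the infarction libraries (1912 MI-E, 2304 MI and 93 Sham cells) and for Sham (98 MI-E, 48 MI and 1411 Sham cells).

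Erythroid-like cells had a higher share of the 10 mRNAs in MI than in Sham, with 2.22% in MI-E, 1.91% in MI and 1.63% in Sham. Haemoglobin mRNAs took, of the UMIs of these cells, 13.9% in MI-E, 14.7% in MI and 31.2% in Sham, so the total against which a member is set differed between libraries. In this class the 2 scalings move the log2 ratio of MI over Sham by -0.33 and -0.31, and the sign of the summed members turned under both. In the shared erythroid-like cluster led by Car1 and Klf1, early erythroid genes, the summed members held 2.74% in MI-E, 2.43% in MI and 2.45% in Sham. In the one led by Hemgn and Slc4a1, later genes, they held 1.32% in MI-E, 1.19% in MI and 1.22% in Sham. The log2 ratio of MI over Sham was -0.0094 in the Car1 cluster and -0.038 in the Hemgn cluster, and MI-E was the highest library in both. The remaining erythroid-like cluster, rich in haemoglobin, held 137 MI-E, 153 MI and 486 Sham cells. In conventional dendritic-like cells, which formed 1 cluster shared by all libraries, the summed members held 2.37% in MI-E, 2.12% in MI and 1.90% in Sham, and both infarction libraries stood above Sham.

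MI-E was last set against Sham. Over all kept cells 4 members were higher in MI-E and 6 lower as reported, a split that was not fixed: mt-Co3 turned to between -0.058 and -0.011 under 3 alternatives and mt-Nd5 to 0.019 under 1. None was past 1.5-fold in either direction, where 6.86% of all genes tested were that much higher and 5.72% that much lower. mt-Nd3 had a log2 ratio of 0.24, mt-Nd1 0.21, mt-Co1 0.080 and mt-Co3 0.037. On the lower side, mt-Cytb had -0.45, mt-Nd4 -0.40, mt-Nd2 -0.38, mt-Atp6 -0.24, mt-Co2 -0.23 and mt-Nd5 -0.097. By class, the summed members were higher in MI-E in 8 of 10, from -0.17 in neutrophil-like to 0.44 in erythroid-like cells, but in 5 and 4 of 10 under the 2 scalings, so no direction is given for the sum. mt-Co1 was higher in 10 of 10 classes, with 9 and 10 under the scalings, and mt-Nd1, mt-Nd3 and mt-Co3 were higher in 9 of 10, also under either scaling. mt-Nd1 was past 1.5-fold in 4 classes, T-like, erythroid-like, myeloid progenitor-like and stem and multipotent progenitor-like cells, where 9.06%, 27.6%, 8.42% and 5.53% of all genes tested were. mt-Nd3 was past it in 4 classes as well, conventional dendritic-like cells (9.05% of all genes) in place of myeloid progenitor-like cells. In erythroid-like cells the share of all genes past that fold was high, and the scaling shifts there were -0.47 and -0.49. mt-Cytb was higher in 3 of 10 classes, and in none under either scaling. In myeloid progenitor-like cells, mt-Nd1 had 1398 CPM in MI-E, 1116 CPM in MI and 882 CPM in Sham, while mt-Cytb had 1469 CPM in MI-E, 1157 CPM in MI and 1937 CPM in Sham. The 2 genes thus ordered MI-E and Sham in opposite ways in the same cells. In neutrophil-like cells 9 of the 10 members were lower in MI-E than in Sham, mt-Co1 being the exception, and 2 were past 1.5-fold lower, where 2.01% of all genes tested were.

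The mixture of the members, each as a share of the UMIs of all 10, does not depend on the total of a class or on its scaling. mt-Co1 made up 24.3% in MI-E, 23.4% in MI and 21.2% in Sham over all kept cells, and mt-Atp6 made up 18.1% in MI-E, 19.6% in MI and 19.8% in Sham. mt-Co3 made up 17.9% in MI-E, 16.7% in MI and 16.1% in Sham, and mt-Co2 made up 16.5% in MI-E, 18.4% in MI and 17.9% in Sham. mt-Co1 and mt-Atp6 came first in each library, and mt-Co3 stood above mt-Co2 in MI-E and below it in MI and Sham. mt-Cytb made up 6.56% in MI-E, 6.50% in MI and 8.29% in Sham, and mt-Nd4 made up 5.35% in MI-E, 5.45% in MI and 6.50% in Sham. mt-Nd1 made up 5.20% in MI-E, 4.83% in MI and 4.14% in Sham, and mt-Nd2 made up 2.51% in MI-E, 2.26% in MI and 3.01% in Sham. The first of these complex I genes was lowest in Sham, and the second was highest there. mt-Nd3 made up 1.85% in MI-E, 1.43% in MI and 1.45% in Sham, and mt-Nd5 made up 1.58% in MI-E, 1.45% in MI and 1.56% in Sham. The share of mt-Co1 was highest in neutrophil-like cells, with 30.2% in MI-E, 28.2% in MI and 25.8% in Sham.

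Its differences between libraries had the same direction in many classes. In MI-E over MI, the share of mt-Nd3 was higher in 10 of 10 classes, with a median log2 ratio of 0.46, and mt-Nd2 and mt-Co3 were also higher in 10 of 10, with 0.14 and 0.11. The shares of mt-Co2 and mt-Atp6 were lower in 10 of 10, with -0.14 and -0.10. mt-Cytb had a median of -0.00084, with 5 classes on either side. In MI over Sham, the share of mt-Co1 was higher in 10 of 10 classes (0.16), and those of mt-Nd2 (-0.35) and mt-Cytb (-0.31) were lower in 10 of 10. In MI-E over Sham, the shares of mt-Nd3 (0.43), mt-Nd1 (0.33), mt-Co1 (0.22) and mt-Co3 (0.11) were higher in 10 of 10. Those of mt-Cytb (-0.29), mt-Nd4 (-0.23), mt-Co2 (-0.17) and mt-Atp6 (-0.14) were lower in 10 of 10. The members of complex I did not share a direction: in MI-E over Sham the shares of mt-Nd1 and mt-Nd3 were higher and that of mt-Nd4 lower in the same classes. Against Sham the largest difference was that of mt-Nd1 in myeloid progenitor-like cells, 6.56% in MI-E, 6.51% in MI and 4.13% in Sham, where both infarction libraries stood apart from Sham.

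**Figure D3:**
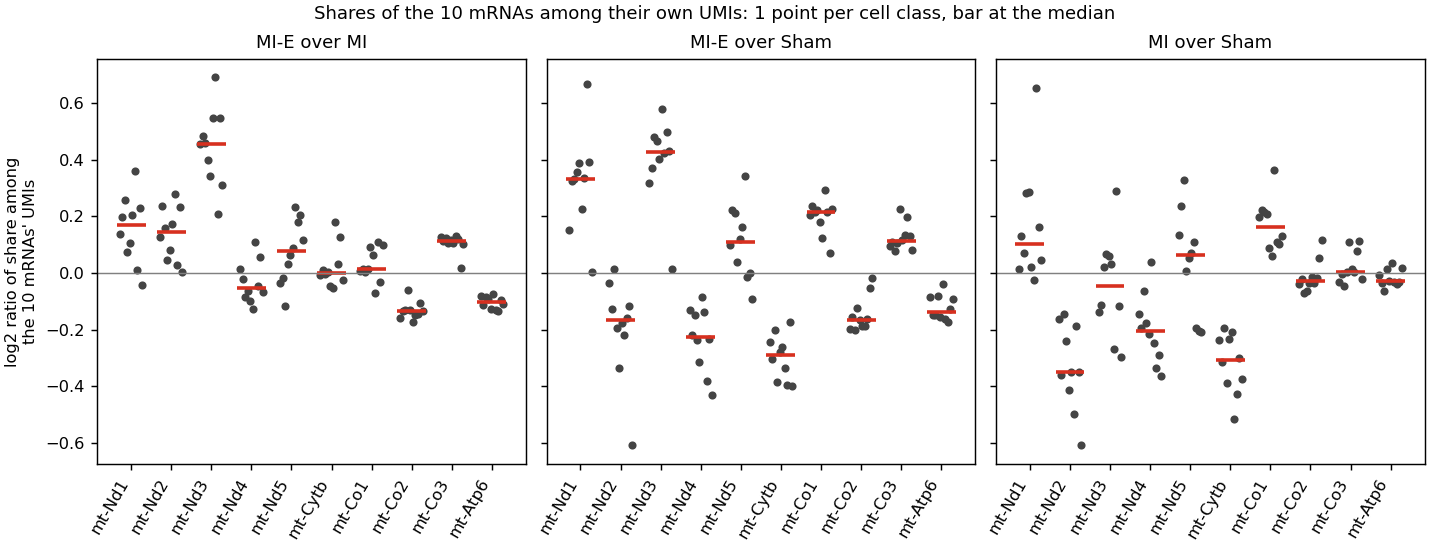
Log2 ratio of each mRNA's share among the UMIs of the 10 mRNAs (vertical axis) for the 10 mRNAs (horizontal axis), 1 point per cell class and a red bar at the median, for MI-E over MI, MI-E over Sham and MI over Sham. All 10 mt-Nd3 points lie above 0 in the first 2 panels, and all mt-Nd2 and mt-Cytb points lie below 0 in the last.

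The nuclear-encoded subunits of the same complexes, 84 genes in the list of which 79 had a mean of at least 10 CPM, were set beside the members. In MI-E over MI, 30 of 79 were higher over all kept cells, with a median log2 ratio of -0.079, while 6174 of 8121 genes in all were, with a median of 0.15. The members had a median of 0.43 in the same cells. By complex, the genes higher in MI-E are given with the median log2 ratio in brackets. They were 9 of 37 (-0.13) for complex I, a list taken by Nduf names that includes Ndufa4, and 3 of 4 (0.085) for complex II. They were 4 of 9 (-0.036) for complex III, 6 of 12 (-0.026) for complex IV and 8 of 17 (-0.0030) for complex V. Complex II, the succinate dehydrogenase, has no mitochondrially encoded subunit. Over 12 separate groups of cells, the 9 classes outside the B lineage and the 3 B cell stages, the median of the members was above 0 in 12 and that of the nuclear subunits below 0 in 12, as reported and under either scaling. The difference between the medians ran from 0.36 in conventional dendritic-like to 0.53 in small pre-B-like cells on the log2 scale. In mature naive B-like cells 19 of 77 nuclear subunits were higher in MI-E, with a median of -0.12, and in neutrophil-like cells 15 of 78, with -0.20.

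In the list for complex I, taken by Nduf names, Ndufb1-ps had 808 CPM in MI-E, 694 CPM in MI and 686 CPM in Sham over all kept cells. Ndufa4, in that list by its name but now counted as a complex IV subunit, had 670.0 CPM in MI-E, 710.3 CPM in MI and 655 CPM in Sham. In complex IV, Cox8a had 954 CPM in MI-E, 1059.6 CPM in MI and 1051 CPM in Sham and Cox7c 798 CPM in MI-E, 741 CPM in MI and 733 CPM in Sham. Cox8a was thus highest in MI, and Cox7c in MI-E. In complex V, Atp5l had 752 CPM in MI-E, 881 CPM in MI and 681 CPM in Sham and Atp5e 779 CPM in MI-E, 778 CPM in MI and 920.2 CPM in Sham. In complex III, Uqcrh had 540.2 CPM in MI-E, 554 CPM in MI and 662 CPM in Sham and Uqcr11 545 CPM in MI-E, 569 CPM in MI and 418 CPM in Sham. In complex II, Sdha had 116 CPM in MI-E, 91.1 CPM in MI and 94.98 CPM in Sham and Sdhb 89.7 CPM in MI-E, 103 CPM in MI and 111 CPM in Sham. These genes were named for their high level within each list, and they order the libraries in different ways. The ratio of summed member UMIs to summed nuclear subunit UMIs was 0.894 in MI-E, 0.673 in MI and 0.981 in Sham over all kept cells. In T-like cells it was 2.20 in MI-E, 1.63 in MI and 1.42 in Sham, and in mature naive B-like cells 2.63 in MI-E, 2.02 in MI and 2.05 in Sham. In neutrophil-like cells it was 0.820 in MI-E, 0.644 in MI and 0.888 in Sham. MI-E exceeded MI in each of these.

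Against Sham the 2 sets of genes did not divide in one way. In MI over Sham, 55 of 79 nuclear subunits were higher over all kept cells (median 0.071), while 0 of 10 members and 3294 of 8121 genes in all (median -0.075) were. In neutrophil-like cells 57 of 78 were higher, with a median of 0.12, against -0.46 for the members and 0.013 for all genes. In monocyte-like cells 67 of 78 were higher, with 0.24, against -0.18 for the members and 0.0060 for all genes. In the 2 shared monocyte-like clusters the members' median was lower than in the class, -0.46 in the histone cluster and -0.42 in the Trem2 cluster. The nuclear subunits are given for the class only, whose cells lay largely in different clusters in MI and Sham. Over the 12 groups of cells the members' median was below that of the nuclear subunits in 7 and above it in 5. In MI-E over Sham, 45 of 79 nuclear subunits were higher over all kept cells (median 0.030), a share close to the 4672 of 8121 genes in all (median 0.053). The members' median was above that of the nuclear subunits in 9 of the 12 groups, with differences from -0.22 in neutrophil-like to 0.70 in T-like cells.

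**Figure D4:**
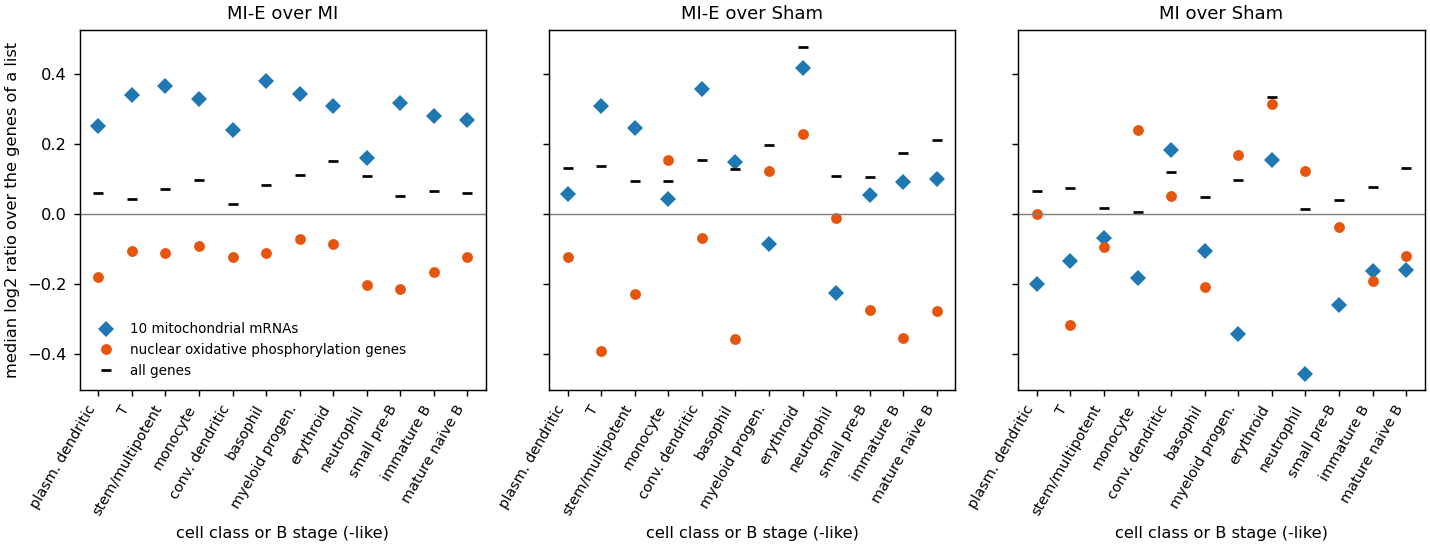
Median log2 ratio of CPM (vertical axis) of the 10 mitochondrial mRNAs (diamonds), the nuclear-encoded oxidative phosphorylation genes (circles) and all genes (dashes) in 12 groups of cells (horizontal axis), for MI-E over MI, MI-E over Sham and MI over Sham. In the first panel every diamond is above 0 and every circle below 0; in the other panels they change places between groups.

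Genes that make and maintain the mitochondrial mRNAs and their ribosomes are encoded in the nucleus too. Their counts use a minimum of 10 CPM. They are to be read beside the counts of all genes at that minimum, given with the nuclear subunits above. At the higher minimum of 50 CPM, 69.0% of all genes tested were higher over all kept cells in MI-E over MI. That share was 55.6% in MI-E over Sham and 42.9% in MI over Sham. In MI-E over MI the median of all genes was above 0 in 12 of 12 groups of cells. Most of all genes tested were thus higher in MI-E than in MI, though this did not hold within every list. Of the proteins of the mitochondrial ribosome, which translates the 10 mRNAs, the number higher over all kept cells was 25 of 77 in MI-E over MI, 31 of 77 in MI-E over Sham and 38 of 77 in MI over Sham. Their median log2 ratio in MI-E over MI was -0.053, and it was below 0 in 12 of 12 groups of cells. Mrpl33, the highest of them, had 634 CPM in MI-E, 701 CPM in MI and 513 CPM in Sham, and Mrpl52 had 248 CPM in MI-E, 251 CPM in MI and 242 CPM in Sham. Of the transcription and RNA processing genes, the number was 13 of 19 in MI-E over MI, 15 of 19 in MI-E over Sham and 7 of 19 in MI over Sham. Their median was above 0 in 8 of 12 groups in MI-E over MI as reported, and in 5 under either scaling, so no direction is given. Slirp, which binds and stabilises mitochondrial mRNAs, had 69.8 CPM in MI-E, 72.8 CPM in MI and 66.0 CPM in Sham, and Rexo2, a mitochondrial RNA exonuclease, had 99.1 CPM in MI-E, 102 CPM in MI and 99.6 CPM in Sham. The biogenesis regulators gave 7 of 7 in MI-E over MI, 5 of 7 in MI-E over Sham and 3 of 7 in MI over Sham, and the chaperones and proteases 10 of 12 in MI-E over MI, 10 of 12 in MI-E over Sham and 7 of 12 in MI over Sham. Yy1 had 93.7 CPM in MI-E, 89.8 CPM in MI and 102 CPM in Sham and Nrf1, a regulator of nuclear respiratory genes, 44.1 CPM in MI-E, 37.6 CPM in MI and 43.2 CPM in Sham, while the chaperonin genes Hspe1 and Hspd1 had 308 CPM in MI-E, 277 CPM in MI and 344 CPM in Sham and 219 CPM in MI-E, 183 CPM in MI and 169 CPM in Sham. The genes for replication and nucleotide supply gave 3 of 6 in MI-E over MI, 2 of 6 in MI-E over Sham and 2 of 6 in MI over Sham, with Ssbp1, the single-strand binding protein, at 92.5 CPM in MI-E, 102 CPM in MI and 93.8 CPM in Sham and Dguok, deoxyguanosine kinase, at 36.0 CPM in MI-E, 38.9 CPM in MI and 51.0 CPM in Sham. Over all kept cells, no gene of these lists was past 1.5-fold in MI-E over MI. Single groups of cells varied more. There the median log2 ratio of the biogenesis regulators ran from -0.079 in plasmacytoid dendritic-like to 0.58 in T-like cells.

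Single cells spread more widely than the libraries. In the median cell the share of the 10 mRNAs was 2.37% in MI-E, 1.77% in MI and 2.60% in Sham. The 10th percentile was 0.626% in MI-E, 0.491% in MI and 0.894% in Sham, and the 90th was 4.33% in MI-E, 3.38% in MI and 4.48% in Sham. No UMI of a member was seen in 41 MI-E, 51 MI and 39 Sham cells. In erythroid-like cells the 10th percentile was 0.196% in MI-E, 0.206% in MI and 0.171% in Sham and the 90th 3.30% in MI-E, 2.89% in MI and 2.50% in Sham, the widest relative range of the 10 classes, and this class joins early and haemoglobin-rich cells. In neutrophil-like cells the median was 0.801% in MI-E, 0.690% in MI and 0.926% in Sham, and the 90th percentile was 1.70% in MI-E, 1.45% in MI and 2.70% in Sham, with Sham reaching highest. In mature naive B-like cells the median was 3.29% in MI-E, 2.77% in MI and 3.07% in Sham.

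The share varied with the depth of a cell, and depth differed between the libraries. Cells of 500 to under 1000 UMIs held 3.04% in MI-E, 2.60% in MI and 3.32% in Sham, those of 2000 to under 4000 UMIs held 2.12% in MI-E, 1.64% in MI and 2.34% in Sham, and those of 8000 UMIs and over held 2.04% in MI-E, 1.65% in MI and 2.04% in Sham. MI was lowest in each of the 5 bins of UMIs per cell. MI-E over MI was above 0 in each bin of all kept cells, with log2 ratios from 0.23 to 0.39, and in each bin compared in each of the 10 classes and 3 B cell stages. The smallest of these was 0.0059 in erythroid-like cells. MI over Sham was below 0 in the 5 bins of all kept cells (-0.55 to -0.31) and in the 5 bins of neutrophil-like cells (-0.88 to -0.096). In neutrophil-like cells of 500 to under 1000 UMIs the members held 1.45% in MI-E, 1.14% in MI and 2.10% in Sham, and in those of 8000 UMIs and over 1.21% in MI-E, 1.06% in MI and 1.14% in Sham, so the libraries lay closest among the deepest cells. In mature naive B-like cells of 1000 to under 2000 UMIs the members held 3.64% in MI-E, 3.03% in MI and 3.18% in Sham.

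**Figure D5:**
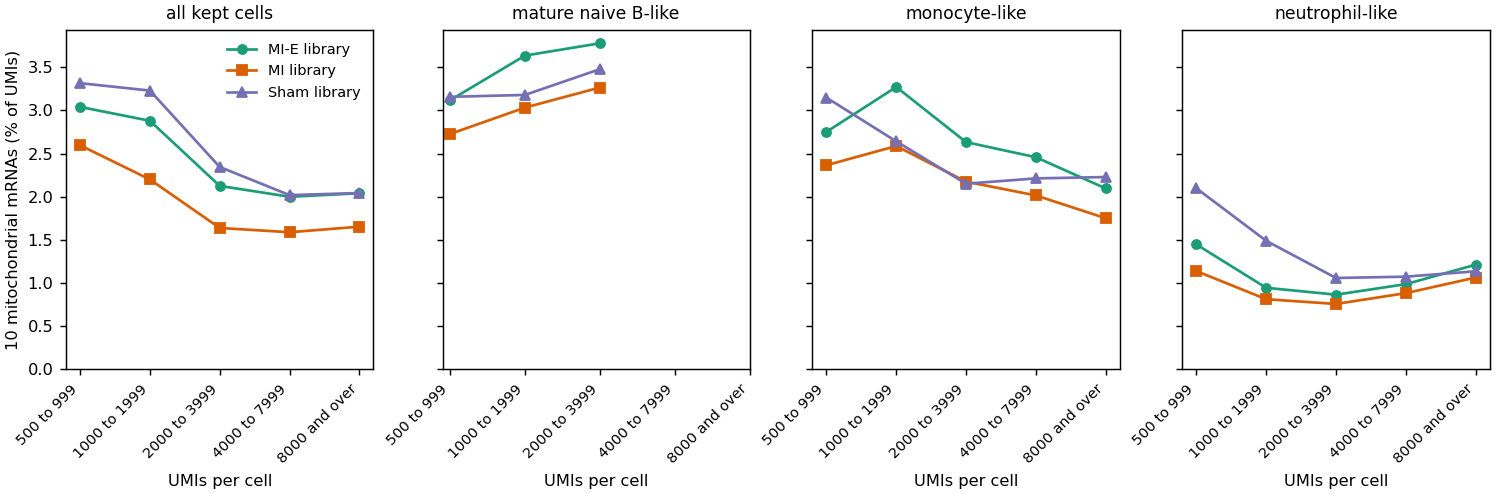
Share of UMIs held by the 10 mRNAs (%, vertical axis) in bins of UMIs per cell (horizontal axis) for all kept cells and for mature naive B-like, monocyte-like and neutrophil-like cells; circles are the MI-E library, squares MI and triangles Sham. The MI-E line is above the MI line in every bin shown. The Sham line crosses the MI-E line in the mature naive B-like, monocyte-like and neutrophil-like panels.

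Other measures moved with the libraries. Malat1, a nuclear RNA whose share is often read as a sign of lost cytoplasm, held 0.608% in MI-E, 0.557% in MI and 1.13% in Sham over all kept cells, and 1.93% in MI-E, 2.35% in MI and 2.55% in Sham in mature naive B-like cells. S100a8 and S100a9, abundant neutrophil mRNAs, held 0.313% in MI-E, 0.507% in MI and 0.195% in Sham in mature naive B-like cells, a cell type in which such UMIs are usually free RNA. In these cells they were highest in MI, the library in which the members were lowest. The highest library was not the same in all classes. It was MI in monocyte-like cells, Sham in T-like cells and MI-E in basophil-like cells. Over the 12 groups of cells, neutrophil-like cells included, the median log2 ratio of S100a8 and S100a9 in MI-E over MI was below 0 in 11. That median was above 0 in basophil-like cells alone, while the members' median was above 0 in 12. The part of free RNA, RNA quality, depth and doublets in the differences of the members was not tested, apart from the depth bins and the alternatives given at the end.

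Outside the mitochondrial genome, 3069 genes with a mean of at least 50 CPM were ranked by the correlation of their log2 CPM with that of the summed members over 30 points, 10 classes in 3 libraries. The 5 most alike were Slc38a1, an amino acid transporter (Pearson r = 0.943), Thoc2, of the mRNA export complex (0.936), Prrc2c (0.936), Mef2d, a transcription factor (0.933), and Birc6, a ubiquitin ligase (0.929). Slc38a1 had 259 CPM in MI-E, 258 CPM in MI and 212 CPM in Sham in B lineage-like cells, and 12.7 CPM in MI-E, 13.8 CPM in MI and 13.4 CPM in Sham in neutrophil-like cells. The 3 least alike were Retnlg (-0.836), Cd177 (-0.826) and Gda (-0.803), the first 2 being neutrophil genes. Retnlg had 55.9 CPM in MI-E, 92.8 CPM in MI and 34.3 CPM in Sham in B lineage-like cells, and 6368 CPM in MI-E, 7227 CPM in MI and 6753 CPM in Sham in neutrophil-like cells. Points of 1 library share its depth and free RNA, the classes differ in total RNA, and the order of classes sets most of these values, so they are a description. At a minimum of 200 CPM, 603 genes were ranked and Prrc2c came first.

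The other 3 mRNAs of the mitochondrial genome in the tables are mt-Nd4l and mt-Nd6 of complex I and mt-Atp8 of the ATP synthase. mt-Nd4l, which shares its transcript with mt-Nd4, had 409.7 CPM in MI-E, 280.2 CPM in MI and 483 CPM in Sham over all kept cells, and mt-Atp8, which shares its transcript with mt-Atp6, had 239.8 CPM in MI-E, 190.3 CPM in MI and 223 CPM in Sham. mt-Nd6, the protein-coding gene of the other strand, had 14.9 CPM in MI-E, 10.4 CPM in MI and 14.1 CPM in Sham, the lowest level of the 13. In MI-E over MI, mt-Nd4l was higher in 10 of 10 classes, with a median log2 ratio of 0.45, where mt-Nd4 had 0.26. mt-Atp8 was higher in 10 of 10, with a median of 0.21, where mt-Atp6 had 0.13. In MI over Sham, mt-Atp8 was higher in 8 of 10 classes, with a median of 0.24, and mt-Atp6 in 2 of 10, with -0.12, although one transcript carries both. Reads of the overlap of the 2 genes may be divided between them in either way. mt-Nd6 was higher in MI-E than in MI in 9 of 10 classes, but its interval excluded equality in 4.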

How the data were processed

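Marrow cells of the 3 libraries were captured in droplets with a 10x Genomics 3' kit, per the labels' protocols. The deposited tables hold raw UMI counts per gene and barcode, made with Cell Ranger 5.0.1 on mm10 per the submitters' processing notes. No source used here names the annotation behind the counts. Each group is 1 library, taken from its treatment label, so no test, p-value or SD was possible.

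Likely doublets were removed per library with the Scrublet procedure of scanpy 1.11.5. The 3 libraries were clustered together, without correction between them, on 2000 variable genes from which mt-, ribosomal protein and antigen receptor segment genes were left out, reduced to 40 components. Leiden clustering (leidenalg 0.10.2) at resolution 1 used 20 neighbours a cell and python-igraph 0.11.9. B lineage-like cells were clustered again. A name needed at least 3 detected markers; the way of scoring markers was settled after the clusters had been seen. UMIs were summed per class and library, so the depth of a class sets the precision. Levels carry exact Poisson intervals, ratios exact conditional binomial intervals, and the mixture was read with Clopper-Pearson intervals, all at 95% and for counting error only. Genes counted as past the fold had a mean of at least 50 CPM in the 2 libraries compared and a ratio of at least 1.5. List members needed 10 CPM or more on average across libraries. The text names the 10 members, the other 3 mitochondrial mRNAs, the 5 genes most and 3 least like the members, the 2 genes of highest mean level in each list, and class markers. The genes that describe single clusters and the 7 shared clusters were picked after their values had been seen. The members and the lists were chosen with earlier results of these data known. Positions, overlaps and sequences came from GENCODE vM21, which is on mm10, and nuclear copies from a BLAST search of its transcripts. The counting and interval steps were tested on simulated data. Work was done in Python 3.11.15 with numpy 2.4.6, scipy 1.17.1, pandas 2.3.3, scikit-learn 1.9.0 and matplotlib 3.10.9. Alternatives covered the mt- limit, a stricter cell filter, doublets, depth, clustering, totals, scaling and the weight of cells.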

Additional observations from a re-analysis of the deposited data

Results flagged for a closer look

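With 1 library a group, none of these differences between classes was tested. In MI over Sham the summed members were lower in 8 of 10 classes, whereas their log2 ratio was 0.16 in conventional dendritic-like cells and 0.23 in erythroid-like cells. The intervals of both excluded equality. The conventional dendritic-like value was above 0 under each of its 15 alternatives, from 0.0397 to 0.193, while 4 of the 16 alternatives turned the erythroid-like value below 0.

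In MI-E over Sham, neutrophil-like cells had a log2 ratio of -0.17, and 8 of 10 classes were above 0. The neutrophil-like value was below 0 under each of 16 alternatives, from -0.405 to -0.089. Myeloid progenitor-like cells, the other class below 0, had -0.0018, and their range over 16 alternatives crossed 0, from -0.195 to 0.0922.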

How the results depend on the processing

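MI-E over MI was above 0 in all 202 values that the alternatives gave for the 10 classes and 3 B cell stages, and in all 160 for the 10 members over all kept cells. In MI over Sham, 8 of 202 turned and 0 of 160, and 10 of the 13 classes and stages kept their sign throughout. In MI-E over Sham, 18 of 202 turned and 4 of 160, and 5 of 13 kept their sign; 3 of the 18 were in myeloid progenitor-like cells, whose interval as reported spanned 0. The share of classes in which the summed members were higher was 100% under every alternative in MI-E over MI, but lay between 40% and 90% in MI-E over Sham and between 10% and 30% in MI over Sham. Why a value moved was not tested, except that either scaling (median-of-ratios or TMM) moves every gene of a class by 1 shared amount. The log2 ratios below are of the summed members unless a gene is named. At equal class mix, only depth bins with enough cells in every library were used. That gave 5 bins in erythroid-, monocyte- and neutrophil-like cells and 4 in plasmacytoid dendritic-like cells. B lineage-, basophil- and stem and multipotent progenitor-like cells had 3, and T-like and conventional dendritic-like cells 2. Myeloid progenitor-like cells had 1, so no bins were balanced there.

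Over all kept cells, MI-E over MI had a log2 ratio of 0.347 as reported, 0.317 with an mt- limit of 5%, 0.335 with at least 800 genes and 1500 UMIs, 0.399 with cells thinned to 1000 UMIs, 0.354 over a total without mt- UMIs and 0.302 over a total without haemoglobin, immunoglobulin, S100a8 and S100a9. It was 0.203 by median-of-ratios, 0.191 by TMM, 0.386 at equal weight of cells and 0.321 at equal weight of the 5 depth bins. Over all kept cells, MI-E over Sham had a log2 ratio of -0.116 as reported, -0.099 with an mt- limit of 5%, -0.123 with a limit of 20%, -0.103 with at least 800 genes and 1500 UMIs, -0.124 with doublets kept and -0.185 with cells thinned to 1000 UMIs. It was -0.164 by median-of-ratios, -0.139 by TMM, -0.149 at equal weight of cells and -0.1 at equal weight of the 5 depth bins. Over all kept cells, MI over Sham had a log2 ratio of -0.463 as reported, -0.416 with an mt- limit of 5%, -0.473 with a limit of 20%, -0.438 with at least 800 genes and 1500 UMIs, -0.471 with doublets kept, -0.584 with cells thinned to 1000 UMIs and -0.473 over a total without mt- UMIs. It was -0.418 over a total without haemoglobin, immunoglobulin, S100a8 and S100a9, -0.386 by median-of-ratios, -0.338 by TMM, -0.536 at equal weight of cells and -0.421 at equal weight of the 5 depth bins. At equal class mix, MI-E over MI had 0.256 as reported, 0.233 with an mt- limit of 5%, 0.252 with no limit, 0.28 with doublets kept, 0.264 with cells thinned to 1000 UMIs, 0.26 with 4000 variable genes, 0.328 with each library clustered apart and 0.263 over a total without mt- UMIs. It was 0.236 over a total without haemoglobin, immunoglobulin, S100a8 and S100a9, 0.167 by median-of-ratios, 0.173 by TMM, 0.268 at equal weight of cells, 0.268 at equal weight of the 5 depth bins and 0.264 with clusters in place of classes. At equal class mix, MI-E over Sham had 0.0943 as reported, 0.086 with a limit of 20%, 0.0803 with no limit, 0.102 with at least 800 genes and 1500 UMIs, 0.0503 with doublets kept, 0.104 with each library clustered apart and 0.0982 over a total without mt- UMIs. It was 0.0507 over a total without haemoglobin, immunoglobulin, S100a8 and S100a9, -0.0477 by median-of-ratios, -0.044 by TMM, 0.0599 at equal weight of cells, 0.0343 at equal weight of the 5 depth bins and 0.0466 with clusters in place of classes. At equal class mix, MI over Sham had -0.162 as reported, -0.141 with an mt- limit of 5%, -0.172 with a limit of 20%, -0.172 with no limit, -0.157 with at least 800 genes and 1500 UMIs, -0.229 with doublets kept, -0.172 with cells thinned to 1000 UMIs and -0.167 with 4000 variable genes. It was -0.224 with each library clustered apart, -0.186 over a total without haemoglobin, immunoglobulin, S100a8 and S100a9, -0.222 by median-of-ratios, -0.219 by TMM, -0.208 at equal weight of cells, -0.234 at equal weight of the 5 depth bins and -0.217 with clusters in place of classes.

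The other signs that turned were these. For MI over Sham, B lineage-like cells gave 0.0179 with an mt- limit of 5%, 0.0338 with no limit and 0.124 with at least 800 genes and 1500 UMIs, and basophil-like cells 0.0148 at equal weight of cells. Erythroid-like cells gave -0.07 over a total without haemoglobin, immunoglobulin, S100a8 and S100a9, -0.101 by median-of-ratios, -0.085 by TMM and -0.0412 at equal weight of the 5 depth bins. For MI-E over Sham by median-of-ratios, erythroid-like cells gave -0.0285, monocyte-like -0.0277, plasmacytoid dendritic-like -0.0663, immature B-like -0.0247, mature naive B-like -0.099 and small pre-B-like cells -0.0354. By TMM the same groups gave -0.0426, -0.00582, -0.0848, -0.0499, -0.101 and -0.0727 in that order, and basophil-like cells -0.00513. Plasmacytoid dendritic-like cells also gave -0.0181 with each library clustered apart, and mature naive B-like cells -0.0177 with a limit of 20%. Of single members in MI-E over Sham, mt-Nd5 had 0.0188 at equal weight of the 5 depth bins, and mt-Co3 had -0.0584 with cells thinned to 1000 UMIs, -0.0111 by median-of-ratios and -0.0247 at equal weight of cells.

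With each library clustered apart, erythroid-like cells reached 0.942 in MI over Sham and 1.16 in MI-E over Sham, and B lineage-like cells -0.418 in MI over Sham and 0.654 in MI-E over MI. The alternative with clusters in place of classes was chosen after seeing the data and used the 24 clusters with at least 50 cells in each library, which hold 79.84% of UMIs. Conventional dendritic-like cells gave no value at Leiden resolution 0.5. At a minimum of 50 CPM, 34.7% of the nuclear-encoded subunits were higher in MI-E than in MI, against 38.0% at the minimum used. No paired analysis was possible because each group has 1 library. Of the 8 genes named as most or least like the members, Cd177 moved by over 0.1 when the correlation was taken within a library, to -0.939 in MI-E, -0.934 in MI and -0.677 in Sham. Depth limits single genes in small classes, such as mt-Nd3 in basophil-like cells, more than the sums.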
